A study of Mesocricetus auratus with 24 samples.

Results

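The response to sound in the inferior colliculus (IC) of seizure-prone hamsters was examined on 12 of the 24 arrays of the series, 6 from stimulated GASH/Sal hamsters and 6 from GASH/Sal hamsters that were not stimulated. GASH/Sal is the genetic audiogenic seizure hamster bred in Salamanca, an inbred line of Syrian hamster in which loud sound triggers convulsive seizures. The arrays were chosen by their titles alone, and the animals whose titles lack the word stimulated are called naive, the term of the study. Stimulated GASH/Sal animals were exposed to auditory stimulation and the IC was taken 60 min after the seizures. Naive GASH/Sal animals are labelled as exposed to nothing. All animals were 16 weeks old with a body weight of about 60 g, and the labels name no transgene and no drug. The other 12 arrays came from control Syrian hamsters, 6 stimulated with the same sound and 6 naive, and entered the report as the comparison strain. The labels call each array a biological replicate. They name the animals in a pair of styles, replicates 1 to 3 in the first (series A) and 4 to 6 in the other (series B) of every group, and no source used here says what these styles mean.

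The IC is the auditory center of the midbrain roof, where ascending input from the cochlear nuclei converges on glutamatergic and GABAergic neurons before it reaches the thalamus. In audiogenic rodents it is the site where sound-evoked seizures begin. Strong firing lets calcium into neurons, and kinases such as ERK and CaMK then switch on immediate-early genes within minutes. The first products are transcription factors of the FOS, EGR, NR4A and NPAS4 families, and these, together with CREB, turn on effectors that act at synapses, such as Homer1, Arc and Bdnf. A seizure also raises adrenal steroids, which act on glucocorticoid-responsive genes such as Per1, Klf9 and Sgk1 through the glucocorticoid receptor.

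Values are log2 signals of mouse probe sets hybridized with hamster RNA, so levels were compared across arrays within a gene and never between genes. A gene was tested where its probe set carried 1 symbol, which gave 19938 genes, and 14108 of them (70.8%) shared a symbol with an annotated hamster gene. Differences are given as log2, stimulated minus naive, with their standard error (SE) from limma. The array medians of the 12 GASH/Sal animals lay between 4.50 and 4.58. Naive GASH/Sal 6 stood apart from its group, with a mean correlation to the other naive arrays of 0.969, against 0.983 to 0.988 for the other 11 arrays, and a median absolute deviation from it of 0.174, against 0.101 to 0.121. Results that rest on it are given with and without it. Of the Syrian arrays, stimulated Syrian 4 stood apart in the same way, with a correlation of 0.969 and a deviation of 0.202, against 0.982 to 0.988 and 0.0932 to 0.128 for the other 11, and values without it were added after seeing the data. The labelled tissue could be checked only roughly, because the percentile of a marker among all genes also depends on how its mouse probe set reads hamster RNA. Snap25, Gad1 and Slc17a6 of neurons and Meis2 of the midbrain roof lay at percentiles 99.7, 98.7, 97.7 and 98.8, whereas Tfap2b, En2 and Pou4f1, also midbrain markers, lay at 62.7, 53.4 and 45.7. Markers of neighboring tissue ranged from Neurod6 of the telencephalon at 1.81 to Emx1 of the telencephalon at 82.4. Between these lay Ttr of the choroid plexus at 19.3, Gabra6 and Pcp2 of the cerebellum at 20.3 and 53.5, and Tph2 and Th of monoaminergic neurons at 17.6 and 72.8, so that these levels do not set the IC apart from its neighbors. Fewer cells of a type and less RNA per cell cannot be told apart in such tissue samples.

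The comparison asked which transcripts of the IC differed after sound-evoked seizures in animals of the same line. By unadjusted limma p, Fos, a gene that neurons switch on with activity, came first. Klf9, which responds to glucocorticoids, came next, and both were higher in stimulated animals. Nr4a3, Nfkbia, Egr2, Homer1 and Egr4, of the same kinds, followed among the lowest p-values. They were mixed there with genes outside both kinds, such as Oas1d, Lage3, Amtn, Muc19 and olfactory receptors. Genes of the cytosolic ribosome were the most frequent named genes among those that were lower. The differences were small. The largest was 0.69 on the log2 scale, only 5 genes differed by at least 1.5-fold (4 higher, 1 lower) and 0 by at least 2-fold. No gene passed an adjusted p of 0.05 in limma over all genes (0 of 19938, 0%). Fos came nearest with an adjusted p of 0.0576, the next gene had 0.347, and all others were above 0.5. Every other gene named below had an adjusted p of 0.993 or 0.999, so that its difference is given with its error and did not pass the test. Of the 98 genes named with values, 90 had an unadjusted p under 0.05, the value by which most of them were chosen, and with each of the 12 animals left out in turn 49 of them kept it in every case and 20 in at most 6 cases. At an unadjusted p under 0.05, 574 genes were higher (2.88%) and 315 were lower (1.58%) in stimulated animals. Together these were 889 genes (4.46%), a share below the 0.05 that this threshold gives when no gene differs. The split by direction depended on the scaling. With every array centered on its median 431 were higher and 444 lower, and after quantile normalization 419 were higher and 486 lower. The median over all genes was 0.013, and the plot of difference and p-value shows where the gene groups lie among the rest.

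**Figure D1:**
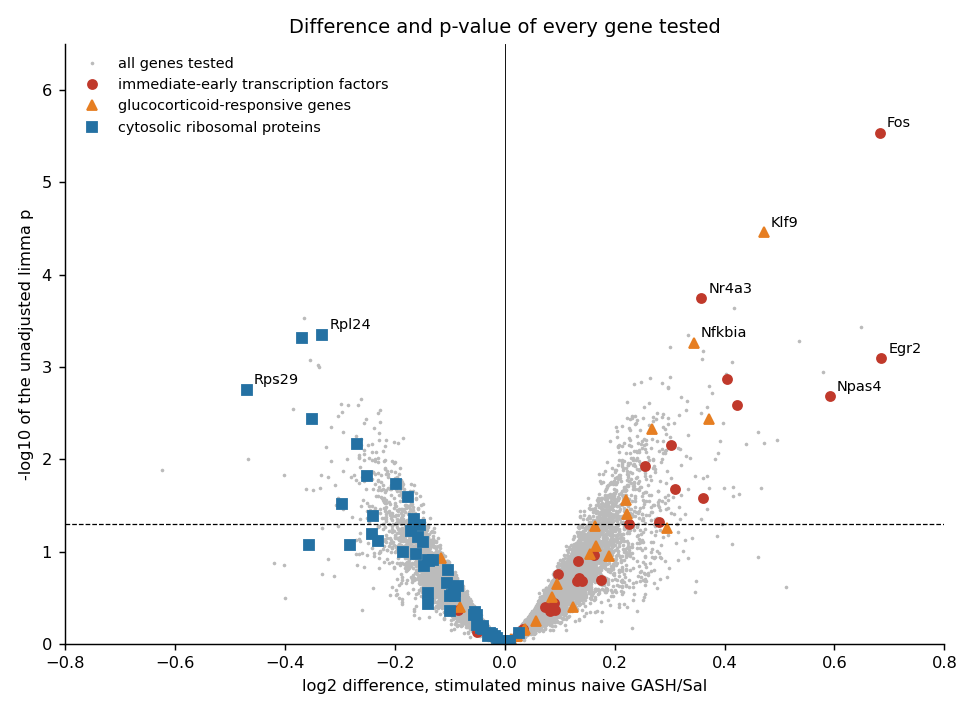
Log2 difference between stimulated and naive GASH/Sal animals (x axis) and -log10 of the unadjusted limma p (y axis) for 19938 genes, with immediate-early transcription factors as red circles, glucocorticoid-responsive genes as orange triangles and cytosolic ribosomal proteins as blue squares. The dashed line marks a p of 0.05. Fos stands highest at a log2 difference of 0.68, most of the immediate-early genes lie right of 0 and most of the ribosomal genes left of it.

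Fos, the subunit of the AP-1 transcription factor that is used to map active neurons, had a lowest, median and highest signal of 6.29, 6.76 and 7.03 in stimulated animals, against 5.84, 5.97 and 6.20 in naive animals. Every stimulated animal lay above every naive animal. The difference was 0.68 (SE 0.119, 1.60-fold, adjusted p = 0.0576), with 0.77 in series A and 0.60 in series B. Fos passed the threshold when naive 4 (adjusted p = 0.0394), stimulated 2 (0.0123) or stimulated 6 (0.0115) was left out. Egr4, a zinc-finger transcription factor of the same early wave, was the other immediate-early gene with no overlap, with 5.91, 6.08 and 6.54 in stimulated animals and 5.63, 5.73 and 5.79 in naive animals (difference 0.40, SE 0.114, 95% interval 0.171 to 0.637). Egr4 differed by 0.32 in series A and 0.49 in series B. Stimulated 4 was the highest animal for Egr4, and without it the difference was 0.32.

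Egr2, which acts with Egr4 on the same DNA element, had the largest difference of the table, 0.69 (SE 0.184, 1.61-fold, 95% interval 0.31 to 1.06, adjusted p = 0.999). Its signal was 5.25, 6.22 and 6.45 (lowest, median, highest) in stimulated animals and 5.04, 5.27 and 5.70 in naive animals. Here the groups overlapped, because stimulated 2 (5.25) and stimulated 6 (5.52) lay within the naive range while stimulated 1, 3, 4 and 5 lay above it. Npas4, a factor that is induced by calcium entry and shapes inhibitory synapses, showed 5.05, 5.89 and 6.48 in stimulated animals, against 5.02, 5.22 and 5.34 in naive animals (difference 0.59, SE 0.175, 95% interval 0.233 to 0.949). Stimulated 2 was again in the naive range and stimulated 6 was just above it at 5.39. Nr4a1, an orphan nuclear receptor, followed the same order with 5.31, 5.74 and 6.17 in stimulated animals and 5.11, 5.32 and 5.37 in naive animals (difference 0.42, SE 0.128, 95% interval 0.16 to 0.685). Stimulated 2 and 6 were the only animals of their group inside the naive range for Nr4a1. Nr4a3, its paralog, differed, since stimulated 2 was the highest animal at 5.26 and only stimulated 6 (4.73) lay inside the naive range of 4.59 to 4.85. Its difference was 0.36 (SE 0.0837, 95% interval 0.187 to 0.529).

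**Figure D2:**
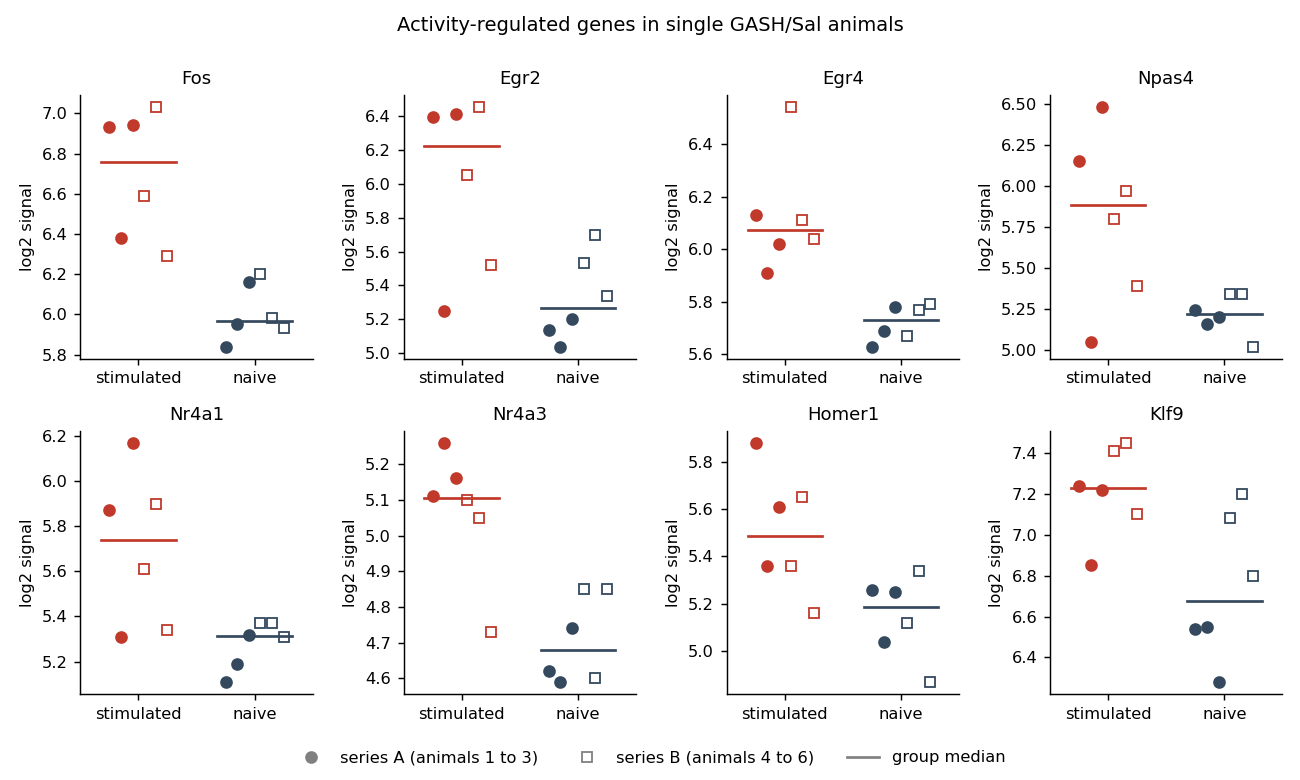
Log2 signal (y axis, one panel per gene, axes not starting at 0) of 8 activity-regulated or glucocorticoid-responsive genes in each stimulated (left) and naive (right) GASH/Sal animal. Circles are series A, open squares series B and lines the group medians. Fos and Egr4 separate the groups completely, whereas 1 or 2 stimulated animals reach the naive range for the other genes.

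The immediate-early transcription factors were described as a list of 30 genes, all tested. Of these, 26 were above 0, and 11 were higher (36.7%) and 0 lower at an unadjusted p under 0.05. The list median was 0.14, beside 0.013 over all genes, with 0.25 in series A and 0.12 in series B. The remaining members with p under 0.05 were Fosb (0.36, SE 0.154), Klf4 (0.30, SE 0.104), Egr3 (0.31, SE 0.127), Jun (0.28, SE 0.136) and Junb (0.26, SE 0.0951), partners or companions of FOS and EGR2 in the early wave. Fosb was at 5.16, 5.77 and 6.09 in stimulated and 4.95, 5.33 and 5.61 in naive animals, with stimulated 1, 3, 4 and 5 above all naive animals and stimulated 2 and 6 inside the naive range. Egr3 was at 6.45, 7.04 and 7.44 in stimulated and 6.26, 6.75 and 6.89 in naive animals, with 4 stimulated animals above all naive animals. With each of the 12 animals left out in turn, p stayed under 0.05 in 7 cases for Fosb, 9 for Egr3 and 4 for Jun. Egr1, the founding member of its family, gave 4.90, 5.14 and 5.85 in stimulated and 4.87, 4.95 and 5.44 in naive animals (difference 0.18, SE 0.135, 95% interval -0.1 to 0.45). The Egr1 difference was 0.05 without stimulated 4, which held the highest value, and 0.25 without stimulated 6. Naive 6 held the highest naive value, 5.44.

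The stimulated animals differed among themselves in this wave. The share of the 30 immediate-early genes that lay above all 6 naive animals was 53.3% in stimulated 1, 43.3% in stimulated 4, 43.3% in stimulated 5 and 36.7% in stimulated 3. It was 20% in stimulated 2 and 16.7% in stimulated 6. Over all genes tested this share was 12.7 to 13.7% in 5 of the animals and 19.6% in stimulated 4. The mean over the list lay above the mean of all naive animals by 0.31 in stimulated 4, 0.29 in stimulated 1, 0.27 in stimulated 5 and 0.23 in stimulated 3, but by 0.07 in stimulated 2 and 0.05 in stimulated 6. Within the series stimulated 2 and 6 were not alike. Stimulated 2 had a list mean of 5.40 and lay above the naive animals of series A (5.20 to 5.29), as stimulated 1 and 3 did, whereas stimulated 6, at 5.37, lay inside the range of the naive animals of series B (5.33 to 5.46). No source used here gives the seizure severity of each animal.

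Effectors that these factors and CREB control were higher in part. Of 38 tested of 40, 30 were above 0, with 7 higher (18.4%) and 0 lower at an unadjusted p under 0.05 and a median of 0.09. Homer1, a scaffold of the postsynaptic density whose short form is induced by activity, had 5.16, 5.49 and 5.88 in stimulated and 4.87, 5.19 and 5.34 in naive animals (difference 0.36, SE 0.0964, 95% interval 0.162 to 0.556). Only stimulated 6 lay in the naive range, and the difference was 0.43 in series A and 0.29 in series B. Bdnf, the neurotrophin, had 5.03, 5.18 and 5.32 in stimulated and 4.85, 4.96 and 5.11 in naive animals, a difference of 0.21 (SE 0.0676) that was alike in series A (0.22) and B (0.19). The other members with p under 0.05 were the neuronal pentraxins Nptx1 (0.30) and Nptx2 (0.27), which cluster AMPA receptors, the prohormone convertase Pcsk1 (0.21), the stress gene Gadd45g (0.25, with 0.53 in series A and -0.04 in series B) and Rgs2 (0.47). Gadd45g kept p under 0.05 in 4 of the 12 cases with an animal left out. Arc, which drives the internalization of AMPA receptors, did not separate the groups, with 5.43, 5.64 and 5.86 in stimulated and 5.35, 5.64 and 5.74 in naive animals (difference 0.07, SE 0.0838, 95% interval -0.1 to 0.242, with 0.02 without naive 1 and 0.12 without stimulated 6). Of 18 MAP kinase phosphatases and Sprouty genes, which switch the ERK pathway off, only Dusp6 had p under 0.05 (0.22, SE 0.0962).

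The effector list was uneven between the series, with medians of 0.20 in A and 0.02 in B, beside 0.02 and 0.007 over all genes. Rgs2, which blunts signaling through Gq-coupled receptors, is an example. Stimulated animals 1 to 3 had 6.03, 4.99 and 5.73 and stimulated animals 4 to 6 had 5.14, 5.18 and 4.47. Naive animals 1 to 3 had 4.74, 4.65 and 4.75 and naive animals 4 to 6 had 5.16, 4.87 and 4.54. Its difference was 0.87 in series A and 0.07 in series B, and these responses differed by 0.80 (SE 0.285, adjusted p = 0.654). Nptx1 differed by 0.54 in series A and 0.05 in series B.

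Glucocorticoid-responsive genes also lay on the higher side. Of 24 tested of 25, 20 were above 0, with 6 higher (25%) and 0 lower at an unadjusted p under 0.05, and a median of 0.11. Klf9, a Krüppel-like factor induced by corticosteroids in neurons, had 6.85, 7.23 and 7.45 in stimulated and 6.28, 6.67 and 7.20 in naive animals (difference 0.47, SE 0.0968, 95% interval 0.273 to 0.668, adjusted p = 0.347). Stimulated 1, 3, 4 and 5 lay above all naive animals. Nfkbia, the inhibitor of NF-kappa-B, had 5.55, 5.86 and 6.04 in stimulated and 5.31, 5.46 and 5.84 in naive animals (difference 0.34, SE 0.0889, 95% interval 0.162 to 0.526). The remaining members with p under 0.05 were Per1 (0.37, SE 0.118), Ddit4 (0.27, SE 0.0879), a brake on mTORC1, Bcl6 (0.22, SE 0.104) and the metallothionein Mt2 (0.22, SE 0.095). Of the 19 clock genes tested, Per1 and Bhlhe40 (0.36, SE 0.111), a repressor of the clock, had p under 0.05, both higher. Of 23 inflammatory genes tested, 0 had p under 0.05, against 2, both higher, without naive 6.

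Several of these genes had a naive level that differed between the series. Per1, the clock gene with a glucocorticoid response element, had 6.29, 5.94 and 6.42 in stimulated animals of series A and 6.41, 6.51 and 6.22 in those of series B. Naive animals had 5.53, 5.68 and 5.46 in series A and 5.97, 6.43 and 6.48 in series B. Stimulated and naive animals were thus separate in series A, where the difference was 0.66, and mixed in series B, where it was 0.085. Sgk1, a kinase induced by corticosteroids and named here after its values were seen, had 5.95, 5.60 and 6.03 in stimulated and 5.07, 4.98 and 4.99 in naive animals of series A. In series B it had 5.30, 5.77 and 5.28 in stimulated and 5.38, 5.87 and 5.84 in naive animals. Its difference was 0.84 in series A and -0.25 in series B, and 0.30 (SE 0.149, 95% interval -0.008 to 0.601) over both. Klf9, which led the list, was also lower in naive animals of series A, with 6.54, 6.55 and 6.28 there and 7.08, 7.20 and 6.80 in series B. The same held for Nfkbia, with 5.34, 5.31 and 5.35 in series A and 5.57, 5.73 and 5.84 in series B, and for Bcl6, with 5.19, 5.09 and 5.37 in series A and 5.43, 5.69 and 5.61 in series B. Ddit4 and Mt2 had naive values that overlapped between the series.

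Fitted alone, series A gave 7 genes past an adjusted p of 0.05 (0.0351%). These were Sgk1 (adjusted p = 0.0134), Hsph1 (0.0238), and Dnajb1, Klf9, Per1, Nr4a3 and the microRNA gene Mir7-1 (0.0454 each). All of these were higher in stimulated animals except Mir7-1, with differences from 0.52 for Nr4a3 to 0.84 for Sgk1, against -0.61 for Mir7-1. Mir7-1 differed by 0.11 in series B, and by -0.25 over both series (-0.39 without naive 6 and -0.16 without naive 4). Series B gave 0 genes. A test of the response in series A minus that in series B, chosen after the data were seen, passed for 0 genes (0%). The lowest adjusted p was 0.246, that of Sgk1 with a difference of 1.09 (SE 0.223). At an unadjusted p under 0.05 the response of series A was above that of B for 812 genes (4.07%) and below it for 498 (2.5%).

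Heat shock chaperones lay on the higher side, with larger differences in series A than in series B. Of 24 heat shock genes tested of 27, 19 were above 0 with a median of 0.08, and 5 were higher and 0 lower at an unadjusted p under 0.05. They were Hsph1 (0.28, SE 0.0867), Dnajb5 (0.29, SE 0.0898), Dnajb1 (0.37, SE 0.143), Hspa4 (0.18, SE 0.0807) and Chordc1 (0.21, SE 0.102, but 0.13 without naive 6), of which Hsph1 and Hspa4 belong to the HSP110 family, the DNAJB genes are HSP40 cochaperones and Chordc1 is a cochaperone of HSP90. The list median was 0.14 in series A and 0.005 in series B. Bright genes in general leaned the same way, since the brightest 25% of all genes had medians of 0.05 in series A and -0.022 in series B. Over both series the heat shock median was 0.04 without naive 6, with 3 genes higher, and 0.05 without stimulated 3. Hsph1 had 6.52, 6.44 and 6.5 in stimulated and 5.91, 5.95 and 5.94 in naive animals of series A. In series B it had 6.19, 6.33 and 5.97 in stimulated and 6.13, 6.28 and 6.07 in naive animals, so that the groups were apart in series A and mixed in series B. The responses of the series differed by 0.55 for Hsph1 (SE 0.137, adjusted p = 0.396) and by 0.79 for Dnajb1 (SE 0.236, adjusted p = 0.586). Of 25 endoplasmic reticulum stress genes, the chaperone Hspa5 (0.26, SE 0.106) and the transcription factor Atf4 (0.20, SE 0.091) had p under 0.05, both higher, and 1 gene did without naive 6.

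**Figure D3:**
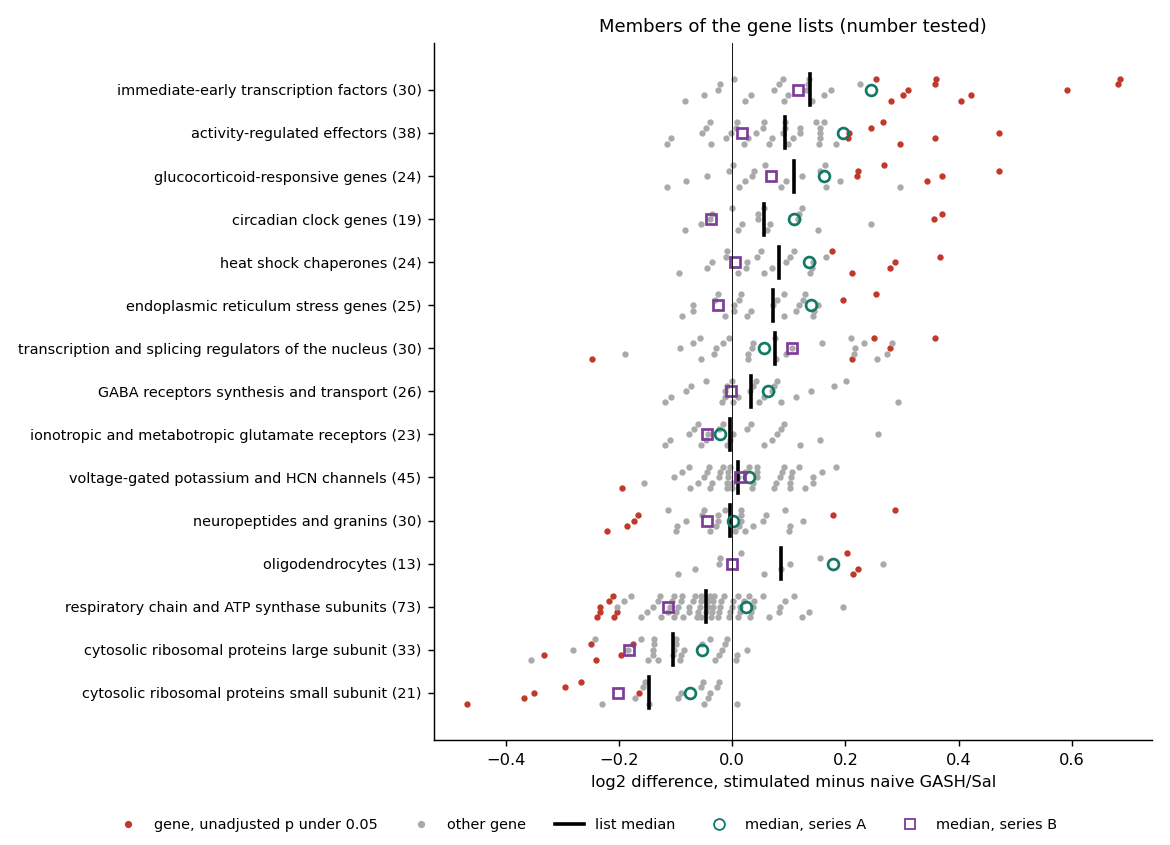
Log2 difference between stimulated and naive GASH/Sal animals (x axis) for each tested gene of 15 lists (rows, with the number tested). Red points are genes with an unadjusted p under 0.05, black bars the list medians, circles the medians in series A and squares those in series B. The immediate-early list has its bar at 0.14 and the small ribosomal subunit at -0.15, and series A and B lie apart for effectors and chaperones.

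Genes of the cytosolic ribosome lay on the lower side. Of the large subunit, 33 of 47 listed genes were tested, with 30 below 0, 5 lower (15.2%) and 0 higher at an unadjusted p under 0.05 and a median of -0.11. Of the small subunit, 21 of 32 were tested, with 20 below 0, 6 lower (28.6%) and 0 higher and a median of -0.15. The other listed genes had no probe set that carried their symbol alone, and whether pseudogenes of this family add to the signal of the tested ones was not tested. Without naive 6, 2 genes of the large and 5 of the small subunit were lower, and the small-subunit median was -0.08. Rpl24 had 8.30, 8.70 and 8.78 in stimulated and 8.65, 9.06 and 9.08 in naive animals (difference -0.33, SE 0.0842, 95% interval -0.504 to -0.16). Rps25 had 6.71, 7.16 and 7.48 in stimulated and 7.0, 7.58 and 7.90 in naive animals (difference -0.37, SE 0.0941, 95% interval -0.56 to -0.176). Rps29 had the largest difference of the list, -0.47 (SE 0.137), with 7.75, 8.52 and 9.06 in stimulated and 7.94, 9.29 and 9.50 in naive animals. Rps12 differed by -0.35 (SE 0.111), Rps9 by -0.30 (SE 0.131) and Rps6, the substrate of S6 kinase, by -0.16 (SE 0.0782).

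The ribosomal signal also separated the label series, and naive 6 bore on it. The mean over the 54 tested genes was 7.45, 7.45 and 7.48 in stimulated animals of series A and 7.13, 7.24 and 7.12 in those of series B. In naive animals it was 7.58, 7.54 and 7.5 in series A and 7.29, 7.20 and 7.56 in series B. Stimulated animals of series A lay below naive animals of series A by a small margin, and in series B naive 6 sat far above naive 4 and 5. The share of the 54 genes below all naive animals was 5.56 to 11.1% in stimulated animals of series A, and 53.7, 29.6 and 53.7% in stimulated 4, 5 and 6, beside 10.5 to 12.8% of all genes. Without naive 6, the median over both subunits was -0.08 instead of -0.12, and 7 of 54 genes instead of 11 were lower at an unadjusted p under 0.05. Rpl38, for instance, differed by -0.24 with naive 6 and by -0.09 without it, and Rps29 by -0.35 without it. Naive 6 also stood apart in 73 genes of the respiratory chain and ATP synthase, which had a median of -0.05 with 0 higher and 7 lower at an unadjusted p under 0.05, among them Cox4i1 (-0.22), Atp5g2 (-0.21) and Ndufb8 (-0.24). Without naive 6 their median was -0.015 and 1 was lower (the median was -0.07 without naive 5 and -0.03 without stimulated 4), and Atp5g2 (-0.11) and Ndufb8 (-0.15) moved by over 1.5-fold. Naive 6 had a list mean of 6.36, against 6.02 to 6.22 in the other naive animals and 6.04 to 6.22 in stimulated animals.

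**Figure D4:**
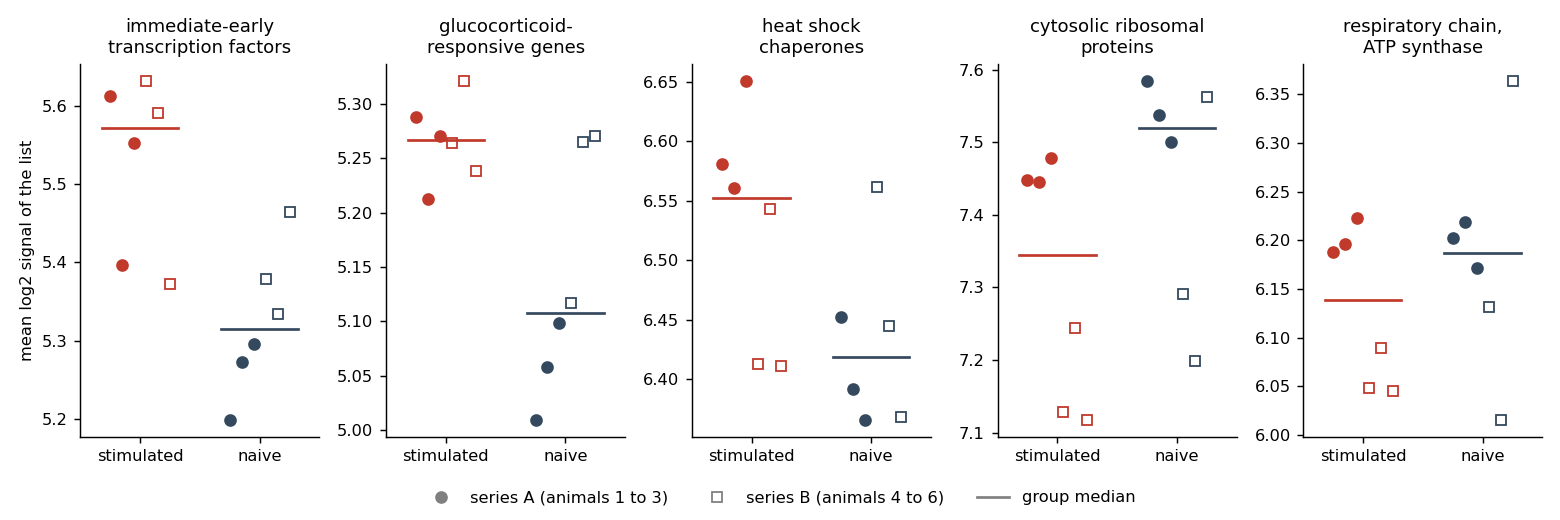
Mean log2 signal over the tested genes of 5 lists (y axis, one panel per list, axes not starting at 0) in each stimulated (left) and naive (right) GASH/Sal animal, with circles for series A, open squares for series B and lines for group medians. The immediate-early mean is highest in stimulated 4 at 5.63, and ribosomal means lie between 7.45 and 7.58 in series A and between 7.12 and 7.29 in series B, apart from naive 6 at 7.56.

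Naive 6 also decided the differences of nuclear splicing factors. Srsf10, an SR protein that regulates splice choice, had 8.12, 8.20 and 8.32 in stimulated animals and 6.62, 8.06 and 8.21 in naive animals, a difference of 0.36 (SE 0.17, 95% interval 0.01 to 0.706). The other 5 naive animals reached 7.99 or more, and without naive 6 the difference was 0.12. Srsf1 had 7.5 in naive 6 and 8.36 or more in the other naive animals, and its difference was 0.28 with it and 0.13 without it. Srsf11 (0.25, and 0.18 without naive 6) and Hnrnpu (0.21, and 0.15 without it) were alike. Of 30 such genes, 4 were higher and 1, the cold-inducible Cirbp (-0.25), was lower at an unadjusted p under 0.05, and 0 in either direction without naive 6. The list median was 0.08, but -0.013 without naive 6 and 0.13 without naive 4.

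Among genes that set excitability, the counts with p under 0.05 were set against the 2.88% higher and 1.58% lower over all genes. Of 26 GABA receptor, synthesis and transport genes tested (median 0.03), 7 glycine genes (0.03) and 23 glutamate receptor genes (-0.004), 0 had an unadjusted p under 0.05. Without naive 6, the GABA median was -0.003 and 1 glutamate receptor gene was higher. Among 45 potassium and HCN channels 1 was lower, the sodium-activated Kcnt2 (-0.19, SE 0.0944), against 1 higher and 1 lower without naive 6, and among 33 sodium and calcium channels 1 was lower, the auxiliary subunit Cacng7 (-0.31, SE 0.135, but -0.16 without naive 6). Without naive 6, 2 sodium and calcium channels were higher and 0 lower. Of 17 calcium-binding proteins, 1 was lower, Necab2 (-0.27, SE 0.106, but -0.175 without naive 6, when 0 were). Of 10 tested genes tied to audiogenic or reflex epilepsy, 0 had p under 0.05 (median -0.001). ABC transporters gave 1 of 34, the translation factor Abcf3 (-0.19, SE 0.0864), lower, and 0 without naive 6. The median SE of a difference over all genes was 0.0895, so that shifts of that size, and well above it, could be missed with 6 animals per group. Even Fos, with a difference of 0.68, had an adjusted p of 0.0576 in limma. These counts therefore do not show that the genes were unchanged.

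Neuropeptides were divided. Of 30 tested, 2 were higher and 4 lower at an unadjusted p under 0.05, against 1 higher and 2 lower without naive 6. Pdyn, the precursor of dynorphins that act on kappa opioid receptors, had 4.93, 4.98 and 5.35 in stimulated and 4.56, 4.75 and 4.94 in naive animals (difference 0.29, SE 0.0905, 95% interval 0.103 to 0.472), with 4 stimulated animals above all naive animals. Adcyap1, which encodes PACAP, was at 4.60, 4.87 and 4.95 in stimulated and 4.56, 4.62 and 4.79 in naive animals (difference 0.18, SE 0.0854), with stimulated 6 alone in the naive range. Vip (-0.17, SE 0.0781), Tac2 (-0.22, SE 0.0955), Pomc (-0.19, SE 0.0888) and the secretory chaperone Scg5 (-0.17, SE 0.075) were lower. With each of the 12 animals left out in turn, p stayed under 0.05 in 3 cases for Adcyap1, in 6 for Scg5, in 6 for Pomc, in 8 for Vip, in 9 for Tac2 and in 12 for Pdyn.

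Cell type markers were compared in the same way. Of 13 oligodendrocyte genes tested, 3 were higher (23.1%) and 0 lower at an unadjusted p under 0.05, the myelin genes Mog (0.22, SE 0.0881), Mobp (0.20, SE 0.0772) and Mal (0.21, SE 0.0793), and the list mean ranged from 5.64 to 5.84 in stimulated and from 5.53 to 5.81 in naive animals. Of 17 neuronal genes, Nefh (0.20, SE 0.0828) was higher and Tubb3 (-0.29, SE 0.133, but -0.16 without naive 6) lower, against 4 higher and 0 lower without naive 6, and the list mean ranged from 7.51 to 7.73 in stimulated and from 7.39 to 7.71 in naive animals. Of 8 oligodendrocyte precursor genes, Pdgfra (0.22, SE 0.095) was higher, with 0.45 in series A and -0.02 in series B, and kept p under 0.05 in 6 of the 12 cases with an animal left out. Within series A the list means of these cell types did not overlap. They were 5.64 to 5.76 in stimulated and 5.53 to 5.59 in naive animals for oligodendrocytes, 7.51 to 7.61 in stimulated and 7.39 to 7.48 in naive animals for neurons, and 5.06 to 5.16 in stimulated and 4.95 to 5.01 in naive animals for precursors. In series B they overlapped for all of these cell types. The separation in series A was not particular to cell type lists. Clock genes (6.435 to 6.473 in stimulated, 6.29 to 6.346 in naive animals) and GABA genes (6.264 to 6.321 and 6.178 to 6.239) separated there too. Inflammatory genes did not (4.589 to 4.665 and 4.551 to 4.684). Among 13 astrocyte, 13 microglial, 15 vascular, 14 choroid plexus and ependymal and 12 meningeal genes, 0 had p under 0.05. At p under 0.05, En2 (-0.21, SE 0.0824) was the only gene lower among 16 of the midbrain roof and 13 of the cerebellum. In these lists 10 and 8 genes were above 0, and 0 were higher at that threshold. Of 8 genes of monoaminergic neurons, 5 were above 0 and 0 were higher. Only Th (-0.20, SE 0.0807), of catecholamine neurons, was lower there, against 0 genes without naive 6. The part of such tissue makeup in the other differences was not tested.

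In 45 genes the groups did not overlap at all, 30 higher (0.15%) and 15 lower (0.0752%) in stimulated animals. With 6 animals per group, a count of about this size arises among 19938 genes when no gene differs. The lack of overlap therefore does not by itself mark a response. Besides Fos and Egr4, these included Creb1, the transcription factor upstream of the immediate-early genes, with 6.15, 6.20 and 6.34 in stimulated and 5.59, 6.06 and 6.11 in naive animals. Its difference was 0.25 (SE 0.12), and 0.20 without naive 6, which was lowest. With each of the 12 animals left out in turn, p stayed under 0.05 in 4 cases for Creb1 and in 5 for Nupr1, given below. Azin1, an activator of polyamine synthesis, had 6.96, 6.98 and 7.08 in stimulated and 6.56, 6.71 and 6.93 in naive animals (difference 0.26, SE 0.0942). Serinc3, a membrane protein, had 7.29, 7.37 and 7.48 in stimulated and 7.13, 7.19 and 7.24 in naive animals (difference 0.19, SE 0.0654). Nupr1, a stress-induced nuclear protein (0.20, SE 0.0974), Bambi, a decoy receptor of TGF-beta signaling (0.19, SE 0.0687), and Vcan, a matrix proteoglycan (0.31, SE 0.099), were higher, while Lage3 (-0.36, SE 0.0888), Armh3 (-0.23, SE 0.0718), the harmonin gene Ush1c (-0.19, SE 0.0625), the ciliary gene Gas8 (-0.22, SE 0.0888) and the mucin gene Muc19 (-0.41, SE 0.118) were lower. Of the 45 genes, 16 lay in the lowest 25% of signals and 9 were olfactory receptors, for which 0 of 1027 symbols matched a hamster gene, so that what these probe sets read is not known.

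Other genes among the lowest p-values belonged to none of the lists. Arrdc3, an arrestin-domain regulator of receptor trafficking, had 6.02, 6.24 and 6.63 in stimulated and 5.03, 5.85 and 6.06 in naive animals (difference 0.54, SE 0.138, and 0.40 without naive 6, which was the lowest animal). The brain ubiquitin ligase Rnf182 (0.25, SE 0.0709), the mitochondrial ligase Marchf5 (0.30, SE 0.0859), Scrn3 (0.30, SE 0.0784) and the microRNA gene Mir221 (0.30, SE 0.0848) were higher. The dim probe sets of Oas1d (0.42, SE 0.0996, percentile 4.58) and Amtn (0.36, SE 0.0948, percentile 20.2) were also higher. Ranbp17 (-0.34, SE 0.0928), Mlip (-0.38, SE 0.118), the mitochondrial Hint2 (-0.30, SE 0.0904) and the syntrophin Sntg1 (-0.29, SE 0.0867) were lower.

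The genes that the study followed up were at these levels in GASH/Sal animals. Besides Egr3 and Rgs2, Npy, the neuropeptide Y gene, had 6.63, 6.80 and 6.85 in stimulated and 6.68, 6.71 and 7.28 in naive animals, a difference of -0.03 (SE 0.0865) that was 0.06 without naive 6, the highest animal. Ttr, the thyroxine carrier, had 3.31, 3.59 and 3.84 in stimulated and 3.47, 3.59 and 3.71 in naive animals (difference -0.002, SE 0.0908), with a sign that turned under several alternatives. Abcb1a, which encodes P-glycoprotein, had 4.93, 5.08 and 5.26 in stimulated and 4.42, 5.03 and 5.13 in naive animals (difference 0.15, SE 0.111, and 0.05 without naive 2). The 3 genes did not separate the groups. Ttr was dim, at percentile 19.3 of all genes, and whether its mouse probe set reads hamster Ttr was not tested. By RT-qPCR the study found Egr3, Rgs2 and Ttr higher in stimulated than in naive GASH/Sal animals, and no such difference for Npy and Abcb1a. Actb, the beta-actin gene used as a reference, differed by -0.11 (SE 0.0705, and -0.06 without naive 6). The study named 11 transcription regulators from pooled RNA-Seq of stimulated GASH/Sal against stimulated Syrian hamsters, which is another contrast and platform. Whether those animals were also on these arrays is not stated, so the list was not taken as independent evidence. Of the 11, 10 were above 0, beside 55.8% of all genes. At an unadjusted p under 0.05, 7 were higher (63.6%, beside 2.88% of all genes), with a median of 0.28. Of these 7, Egr2, Egr3, Egr4, Npas4, Jun and Junb were already counted among the immediate-early genes, so the 2 lists are not separate results. Klf7, a factor of neurite growth, was at 6.59, 7.12 and 7.44 in stimulated and 6.25, 6.63 and 6.94 in naive animals (difference 0.44, SE 0.151).

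The same sound in the control strain served to ask whether the response of GASH/Sal hamsters differed from that of hamsters not bred for seizures. In Syrian hamsters 867 genes were higher (4.35%) and 456 lower (2.29%) at an unadjusted p under 0.05, against 785 and 627 without stimulated Syrian 4. The difference of the responses, GASH/Sal minus Syrian, passed an adjusted p of 0.05 for 0 genes (0%). At an unadjusted p under 0.05 it was above 0 for 349 genes (1.75%) and below 0 for 385 (1.93%), against 547 and 384 without stimulated Syrian 4. Either way, both directions together were a share below the 0.05 that the threshold gives when no gene differs. Fos differed by 0.68 between stimulated and naive GASH/Sal animals and by 0.48 (SE 0.119) between stimulated and naive Syrian animals. The difference of these responses was 0.20, with a 95% interval from -0.14 to 0.54, so that neither equal responses nor a clearly larger one in GASH/Sal can be read from it. With 1 animal left out it ranged from 0.12 (without stimulated GASH/Sal 5) to 0.295 (without stimulated Syrian 2). It was 0.205 without stimulated Syrian 4. Egr4 responded by 0.40 in GASH/Sal and by -0.06 in Syrian animals, a difference of 0.47 (interval 0.14 to 0.80, adjusted p = 1). Without stimulated Syrian 4, Egr4 responded by 0.06 in Syrian animals and the difference was 0.34 (interval 0.07 to 0.61). The Egr4 difference was 0.17 in series A and 0.77 in series B. Egr2 gave a difference of responses of 0.44 (interval -0.09 to 0.97) and Bdnf of 0.20 (interval 0.004 to 0.40, adjusted p = 1). The Bdnf interval ran from -0.02 to 0.37 without stimulated Syrian 4.

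Over the 30 immediate-early genes, the median response was 0.14 in GASH/Sal and 0.07 in Syrian animals, with 11 and 4 members higher at an unadjusted p under 0.05, and the difference of responses had 3 above 0 and 0 below 0 at that threshold. Without stimulated Syrian 4, 5 members were higher in Syrian animals and 2 differences were above 0. Ribosomal genes had a median of -0.12 in GASH/Sal and -0.009 in Syrian animals, with 11 and 6 lower. Without naive GASH/Sal 6, the GASH/Sal median was -0.08 with 7 lower. The difference of responses was above 0 for 0 and below 0 for 2 of these genes. Without stimulated Syrian 4, 4 were lower in Syrian animals and 1 difference was below 0. The lowest p-values for the difference among the genes named here were those of Alyref2, an mRNA export factor that responded by 0.41 in GASH/Sal and by -0.19 in Syrian animals (difference 0.61, interval 0.28 to 0.93), and of En2, with -0.21 in GASH/Sal and 0.21 in Syrian animals (difference -0.42, interval -0.66 to -0.18). Oas1d (0.47), Scrn3 (0.33) and Pdyn (0.32) had a difference above 0, and Mlip (-0.50) and Vip (-0.32) below 0, each with an adjusted p of 1. Without stimulated Syrian 4 the differences were 0.54 for Alyref2 and -0.36 for En2.

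**Figure D5:**
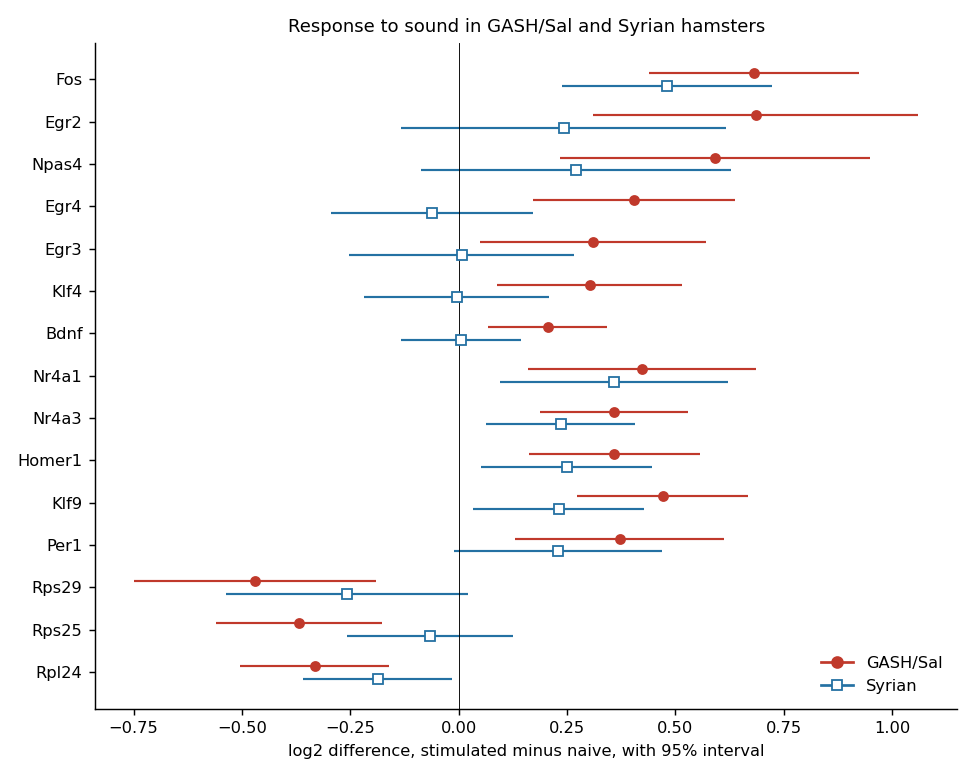
Log2 difference between stimulated and naive animals with its 95% interval (x axis) for 15 genes in GASH/Sal (red circles) and Syrian hamsters (blue squares). Egr4, at 0.40 in GASH/Sal and -0.06 in Syrian animals, shows the widest gap among the immediate-early genes drawn (0.06 in Syrian animals without stimulated Syrian 4), and the Fos intervals of the strains overlap.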

How the data were processed

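Per the labels, RNA of the inferior colliculus of 24 hamsters was hybridized to Affymetrix mouse GeneChip arrays, 1 animal per array. The deposited table held log2 values of 35556 probe sets that the authors made with RMA, as the submitters' processing notes name it, and 0 of its columns were left out. Probe sets with 1 symbol (21789) were kept, and those with several (1621) or no listed symbol (12146) were not. The probe set with the highest mean stood for each of 999 genes with more than 1. All 24 arrays were fitted with limma 3.58.1 in R 4.3.3, with 4 groups and the label series as covariate (19 residual degrees of freedom), empirical Bayes moderation and Benjamini-Hochberg adjustment. Code was tested on simulated data. The genes, 39 lists and tests were chosen with earlier results of these data known. Named genes were the 20 higher and 15 lower with the lowest unadjusted p (unnamed, olfactory and vomeronasal genes left out), list members with p under 0.05, fixed activity and study genes, genes with no overlap and defining markers. Sgk1 and Mir7-1 were added after their values were seen. Alternatives varied the scaling, probe set rule, filter, model, weights, series and replicates, including the replicate number as a block. The number of arrays limits the precision.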

Additional observations from a re-analysis of the deposited data

Results flagged for a closer look

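Single animals stood far from the rest of their group in 18 of 196 sets, each set being 1 of 98 genes in 1 group of 6 animals. A value was taken when its gap to the nearest animal exceeded Dixon's critical share of the range of the group, which chance gives in about 1 of 20 sets.

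Naive 6 accounted for 8 of the 18. It was low for Srsf10 (6.62, next animal 7.99), Srsf1 (7.5, next 8.36), Srsf11 (6.31, next 6.70) and Arrdc3 (5.03, next 5.76). It was high for Npy (7.28, next 6.75), Egr1 (5.44, next 5.0), Ndufb8 (5.90, next 5.56) and Actb (9.43, next 9.09). The cause was not tested.

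In 8 sets the animal was a stimulated one. Stimulated 4 was high for Egr1 (5.85, next 5.16), Egr4 (6.54, next 6.13), Mog (6.16, next 5.97) and Amtn (4.14, next 3.79), and low for Npy (6.63, next 6.77). Stimulated 3 was high for Ddit4 (6.36, next 6.12), stimulated 1 high for Nupr1 (5.55, next 5.40), and stimulated 6 low for Adcyap1 (4.60, next 4.84). The remaining sets were naive 2 at 4.63 for Alyref2 (next 4.97) and at 4.42 for Abcb1a (next 4.97).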

How the results depend on the processing

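The stimulated against naive GASH/Sal comparison gave 0 genes past an adjusted p of 0.05 in limma, 7 in series A alone and 1 with genes at or above the median signal, with trended and robust moderation, and with array weights. The single gene was Fos (adjusted p = 0.0371, 0.042 and 0.0234 in that order), and leaving out 1 animal gave 0 to 1. Genes higher at an unadjusted p under 0.05 (574) numbered 1195 in series A, 266 with the signal filter, 944 over every probe set, 878 with array weights and 441 to 733 with 1 animal left out. Genes lower (315) numbered 594, 153 and 832 under the first 3 of these, 486 after quantile normalization and 267 to 393 with 1 animal left out. Genes higher with no overlap (30) numbered 1915 in series A, 1043 in series B, 2452 in series B without naive 6, 11 with the filter, 48 over every probe set, 18 after quantile normalization and 41 to 71 with 1 animal left out. Genes lower with no overlap (15) numbered 959, 870, 1975, 5 and 33 under the same first 5, then 24 with median centering, 28 after quantile normalization and 23 to 35 with 1 animal left out. Fewer animals per group leave more genes without overlap by construction. Of 889 genes with an unadjusted p under 0.05, 5 differed by at least 1.5-fold and 0 by at least 2-fold. With the replicate number as a block, 0 genes passed the adjusted threshold, 550 were higher and 296 lower. Deviations of same-numbered animals correlated from -0.07 to 0.23, with 3 of 6 over 0.1, so the numbers were not taken as pairs. The difference of responses between the strains gave 0 genes past the adjusted threshold under all of the alternatives run.

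Of 2716 gene values under an alternative, 2671 kept their direction and side of the adjusted threshold, 13 passed it and 32 reversed. In series B, the reversed differences were Gadd45g -0.037, Arc -0.073, Dnajb1 -0.025, Pdgfra -0.021, Abcb1a -0.048, Ttr 0.155, Sgk1 -0.25 and Mir7-1 0.113. In series B without naive 6, chosen after the data were seen, they were Rgs2 -0.089, Pcsk1 -0.055, Gadd45g -0.013, Arc -0.065, Hsph1 -0.041, Hspa4 -0.074, Chordc1 -0.03, Hspa5 -0.058, Npy 0.077, Mobp -0.032, Pdgfra -0.003, Abcb1a -0.017, Actb 0.009, Ttr 0.114 and Sgk1 -0.181. Npy was 0.064 in series A, 0.042 with array weights, 0.061 without naive 6 and 0.014 without stimulated 4. Ttr was 0.04 without naive 1, 0.022 without naive 2, 0.029 without stimulated 1, 0.041 without stimulated 3 and 0.034 without stimulated 6, in a range from -0.042 to 0.041 with 1 animal left out. The cause was not tested.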

Other observations

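Gene families and ranges of signal were also tabulated, beside 2.88% higher and 1.58% lower over all genes at an unadjusted p under 0.05. Of 1027 olfactory receptor genes, 45 were higher (4.38%) and 12 lower (1.17%), with a median of 0.027. Of 167 vomeronasal receptor genes, 6 were higher (3.59%) and 1 lower (0.599%). Of 300 microRNA genes, 6 were higher and 6 lower (2% each), against 6 higher and 19 lower without naive 6. Of 52 small nucleolar RNA genes, 0 were higher and 5 lower (9.62%). In the lowest 25% of signals 149 genes were higher (2.99%) and 69 lower (1.38%). In the highest 25% 136 were higher (2.73%) and 72 lower (1.44%).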
